A study of Mus musculus with 38 samples.

Results

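The genes described here encode chaperones of the cytosol and their helpers, the core of the heat shock response. They were chosen by gene symbol, as a list of 10 genes: Hsp90aa1, Hsp90ab1, Hspa8, Hspa1b, Hsph1, Hspb1, Dnajb1, Bag3, Ahsa1 and Chordc1. Of these, 8 were found among the 17501 gene symbols of the arrays, with 13 of 36607 probes. Hsp90ab1 and Hspa1b matched no probe by symbol or gene number and were not analysed here. RNA was measured in livers of 20 male mice in 4 groups of 5 on 38 two-colour arrays. All mice, controls included, received a single intraperitoneal dose of 10 µg/g N-nitrosodiethylamine (DEN), a liver carcinogen, at 14 days of age, and all carried Cre recombinase under the albumin promoter (Alb-Cre +/-), which is active mainly in hepatocytes, so that other liver cells keep Met. Knockouts also carried floxed alleles of the hepatocyte growth factor receptor (Met Fl/Fl). The strain was labelled B6129 for controls and 129SV/C57BL6 for knockouts, so that genotype and strain label cannot be told apart. Livers were taken at times called 3 and 5 months after the dose, with ages labelled 12 and 20 weeks. These ages are younger than a dose at 14 days would give, so that the interval from dosing to collection is uncertain. Each liver was set against 1 common reference, RNA pooled from 5 wild-type B6129 male livers labelled 12 weeks old, once with the liver RNA in the dye Cy5 and once in Cy3 for 18 mice. Of the 5-month knockouts, mouse 2 has only the array with liver in Cy3 and mouse 3 only that in Cy5. Their values rest on the dye effect of the other 18 mice, pooled over both ages.

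Values are log2 ratios of liver over that reference, 1 per mouse, given with the SD over 5 mice. A value of 1 is a doubling over the reference. The labels do not state which dye is the numerator. Cy5 over Cy3 was taken as likely. If the ratio runs the other way, all directions given here turn around. For genes with several probes, probe 1 is the one whose values agreed best between the arrays with liver in Cy5 and in Cy3, and it stands for the gene. A difference was called when limma's adjusted p over all 36607 probes was under 0.05. Whole livers were measured, so that fewer cells of a type and less RNA per cell cannot be told apart. The labels describe the 5 animals of a group as separate mice.

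Cytosolic chaperones fold new proteins and refold damaged ones. Hsp90aa1 and Hspa8 encode an HSP90 and an HSP70, ATP-driven machines whose cycles are set by partner proteins: J-domain proteins such as Dnajb1 deliver clients to HSP70, nucleotide exchange factors such as Hsph1 and Bag3 release them, and Ahsa1 speeds the ATPase of HSP90. In unstressed cells the transcription factor HSF1 is held inactive by chaperones. When unfolded proteins occupy those chaperones, HSF1 binds repeated GAA units in promoters and raises the transcription of most of these genes at once. In liver the same genes are known to follow daily rhythms of feeding and body temperature.

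In control livers 6 of the 8 genes stood above the reference at 3 months by the test (12.3% of all probes did), and none did at 5 months (14.7%). These 6, Hsp90aa1, Hspa8, Hsph1, Bag3, Ahsa1 and Chordc1, fell between the ages in controls, by 1.6-fold to 2.4-fold (7.25% of all probes were called lower). In knockout livers the same 6 genes stood above the reference at 3 months too (10.6% of all probes). At 5 months all of them but Bag3 remained above it by the test (17.1%). At 5 months 7 of the 8 genes had higher values in knockouts than in controls, by up to 1.97-fold for Hsp90aa1. None of the 8 passed the threshold in that comparison (0.145% of all probes did). Between the ages 7 of the 8 genes also had lower values in knockouts, with none called (4.73% of all probes). For no gene was the genotype difference shown to change with age. Hspb1 gave opposite answers from its 2 probes.

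**Figure D1:**
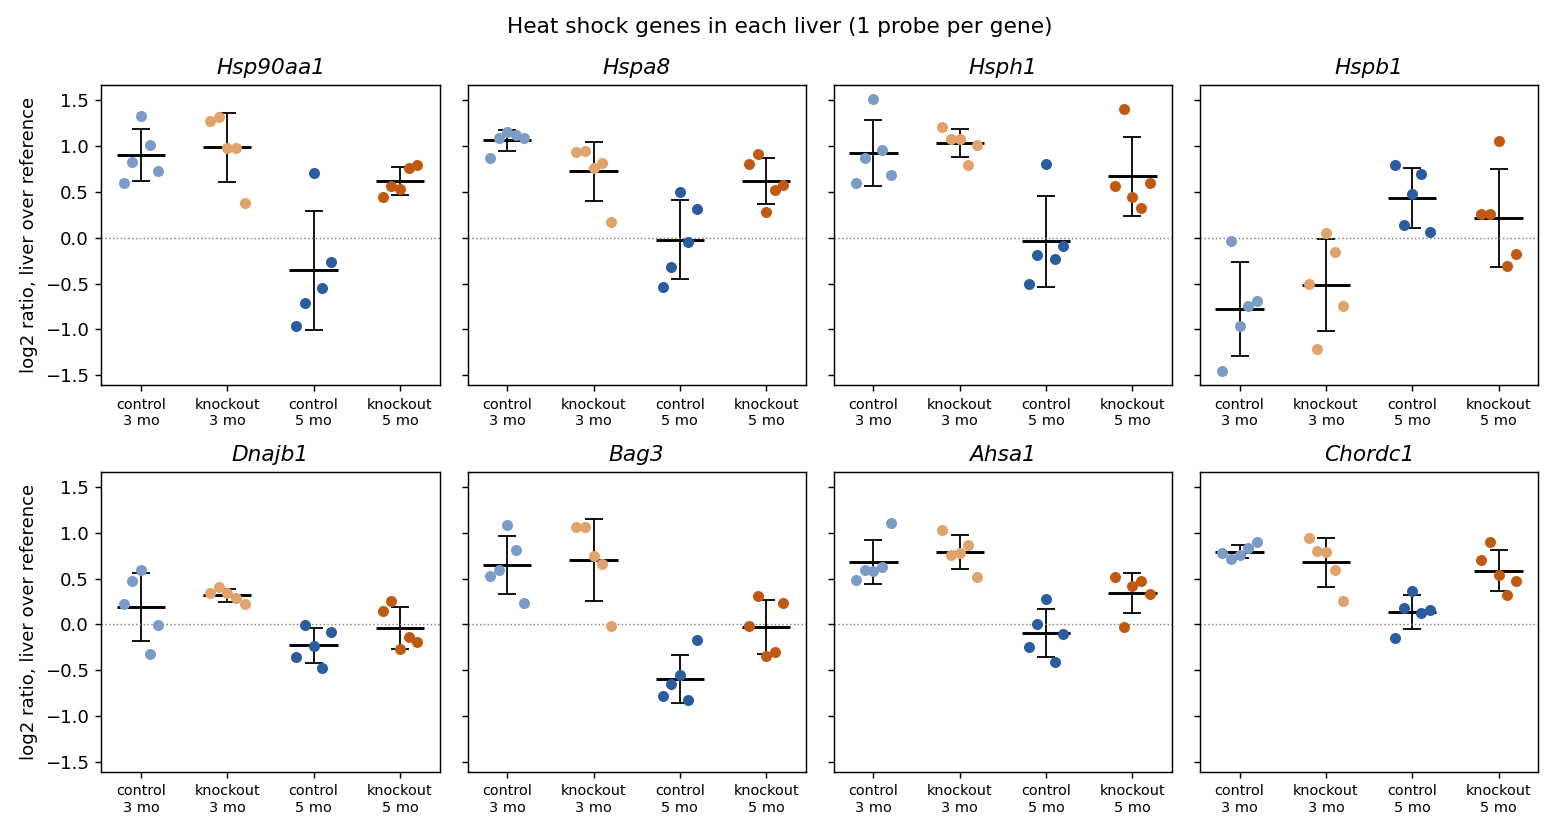
Each panel is a gene, each point a mouse, and the y axis the log2 ratio of liver over the common reference for probe 1. Horizontal bars are means and error bars SD (n = 5). In 7 panels the 5-month controls have the lowest mean, with control 3 the highest of its group in 5 of them, while Hspb1 probe 1, whose arrays disagree, has its lowest means at 3 months.

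Hsp90aa1, the stress-inducible cytosolic HSP90, had the farthest estimate of the 8 genes between the genotypes at 5 months, and between the ages in controls it, Bag3 and Hspb1 probe 1 did not differ in size beyond their error. In 3-month controls 1 to 5 the log2 ratios were 0.60, 0.83, 1.33, 1.01 and 0.73. In 5-month controls they were -0.96, -0.71, 0.71, -0.55 and -0.27. All 3-month control livers were above the reference, and of the 5-month controls only mouse 3 was, so that the groups overlapped through that mouse alone. The knockouts had 1.28, 1.32, 0.98, 0.98 and 0.38 at 3 months and 0.45, 0.57, 0.53, 0.76 and 0.79 at 5 months. Every 5-month knockout was above the reference, and 5-month control 3 lay inside their range. A second probe gave 0.85 ± 0.29, 0.97 ± 0.21, -0.32 ± 0.63 and 0.68 ± 0.33 in 3-month controls, 3-month knockouts, 5-month controls and 5-month knockouts, against 0.90 ± 0.28, 0.99 ± 0.37, -0.36 ± 0.64 and 0.62 ± 0.15 for probe 1. Probe 3 did not follow them and is described with Hspb1.

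Ahsa1 encodes the activator of the HSP90 ATPase. Its log2 ratios were 0.49, 0.60, 0.58, 0.63 and 1.11 in 3-month controls and -0.25, 0.01, 0.28, -0.41 and -0.10 in 5-month controls, with no overlap between the ages. In knockouts they were 1.03, 0.76, 0.78, 0.87 and 0.52 at 3 months and 0.52, -0.03, 0.42, 0.48 and 0.33 at 5 months. All but 1 of the 5-month knockouts were above the highest 5-month control. Chordc1 encodes a CHORD-domain protein that binds HSP90. It had the narrowest spread of all members in 3-month controls, with 0.78, 0.71, 0.76, 0.83 and 0.90. The 5-month controls had -0.15, 0.18, 0.37, 0.12 and 0.16, again without overlap. Knockout values for Chordc1 were 0.95, 0.80, 0.79, 0.60 and 0.26 at 3 months and 0.70, 0.90, 0.54, 0.32 and 0.47 at 5 months, so that 4 of 5 older knockouts exceeded every 5-month control.

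Hspa8, the constitutively expressed cytosolic HSP70, was measured by 3 probes that behaved alike. Probe 1 gave 0.87, 1.09, 1.16, 1.12 and 1.09 in 3-month controls and -0.54, -0.32, 0.50, -0.05 and 0.31 in 5-month controls. The ages did not overlap. In knockouts it gave 0.94, 0.95, 0.76, 0.82 and 0.17 at 3 months and 0.81, 0.91, 0.28, 0.52 and 0.58 at 5 months. Knockout 5 of the 3-month group lay well below the other 4 mice of its group, and the knockout ages overlapped. Group means of the 3 probes lay close together: 1.07 ± 0.11, 1.11 ± 0.09 and 1.04 ± 0.17 in 3-month controls, and -0.02 ± 0.43, 0.12 ± 0.43 and -0.01 ± 0.53 in 5-month controls.

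Hsph1 (HSP110) is a nucleotide exchange factor of HSP70. Its ratios were 0.60, 0.87, 1.52, 0.96 and 0.69 in 3-month controls and -0.50, -0.19, 0.81, -0.23 and -0.09 in 5-month controls. Control 3 was the highest of its group at both ages, though these are different animals. The knockouts had 1.21, 1.08, 1.08, 0.79 and 1.01 at 3 months and 0.57, 1.41, 0.45, 0.32 and 0.60 at 5 months. Knockout 2 of the older group, whose liver was hybridised in Cy3 alone, stood apart from the rest. Bag3, the HSP70 exchange factor that links chaperones to selective autophagy, had 0.53, 0.59, 1.09, 0.81 and 0.23 in 3-month controls and -0.78, -0.65, -0.55, -0.82 and -0.17 in 5-month controls. It was below the reference in every 5-month control, as was Dnajb1. In knockouts Bag3 had 1.07, 1.06, 0.75, 0.66 and -0.02 at 3 months and -0.02, 0.31, -0.34, -0.30 and 0.23 at 5 months. Dnajb1, a J-domain partner of HSP70 and a classical heat-induced gene, had a group mean within 0.32 of the reference in all 4 groups, with means of 0.20 ± 0.37, 0.32 ± 0.07, -0.23 ± 0.19 and -0.04 ± 0.23 in 3-month controls, 3-month knockouts, 5-month controls and 5-month knockouts.

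Hspb1 encodes HSP27, a small heat shock protein that holds unfolded clients without ATP. Its 2 probes disagreed. Probe 1 gave -1.46, -0.04, -0.96, -0.75 and -0.69 in 3-month controls and 0.79, 0.14, 0.48, 0.70 and 0.06 in 5-month controls, higher at 5 months. Probe 2 gave -0.12, 0.32, -0.03, -0.18 and -0.04 and then -0.91, -0.39, -0.26, -0.53 and -0.69, lower at 5 months. Neither repeated between the arrays of the same mouse. Once the mean of each orientation and run of arrays was removed, the correlation between the liver-in-Cy5 and liver-in-Cy3 values over 18 mice was -0.09 for probe 1 and -0.12 for probe 2. Probe 3 of Hsp90aa1 had -0.01, against 0.87 and 0.80 for the others of that gene. Its group means were -0.06 ± 0.78, -0.16 ± 0.46, 0.48 ± 0.38 and 0.16 ± 0.36, with none of the pattern of probes 1 and 2. The same correlation was 0.85 for each probe of Hspa8, 0.70 for Hsph1, 0.68 for Ahsa1, 0.66 for Bag3, 0.57 for Chordc1 and 0.47 for Dnajb1. These are descriptions over 18 mice and 2 arrays each. Hspb1 is counted below by its probe 1, as the rule for genes with several probes has it, and each count that holds it rests there on values whose own arrays disagree.

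**Figure D2:**
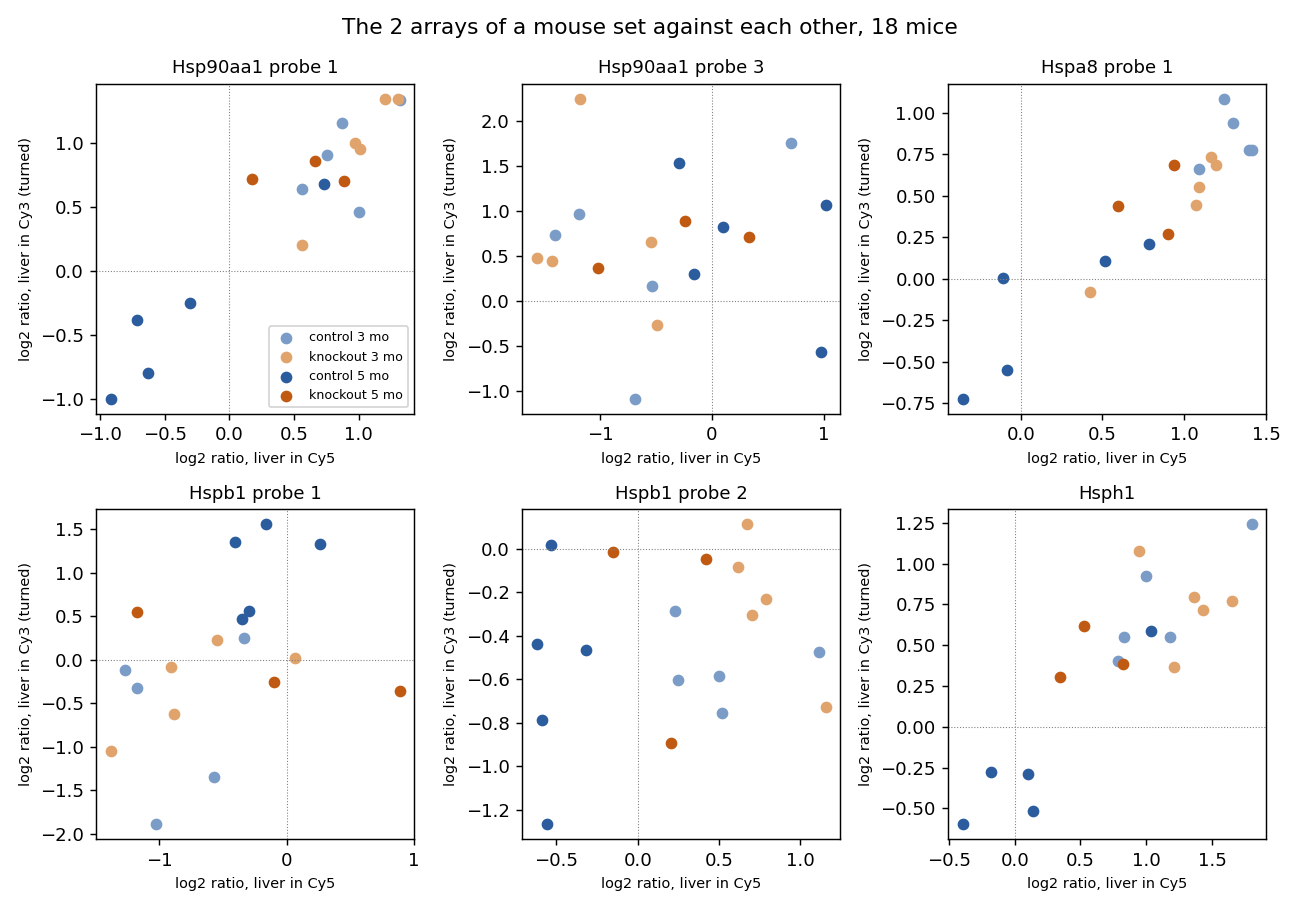
Each point is 1 of 18 mice with both dye orientations, plotted as the log2 ratio of liver over reference on the array with liver in Cy5 (x) against that with liver in Cy3 after its sign was turned (y). Points rise along a line for Hsp90aa1 probe 1, Hspa8 probe 1 and Hsph1 and scatter for Hsp90aa1 probe 3 and both probes of Hspb1.

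**Figure D3:**
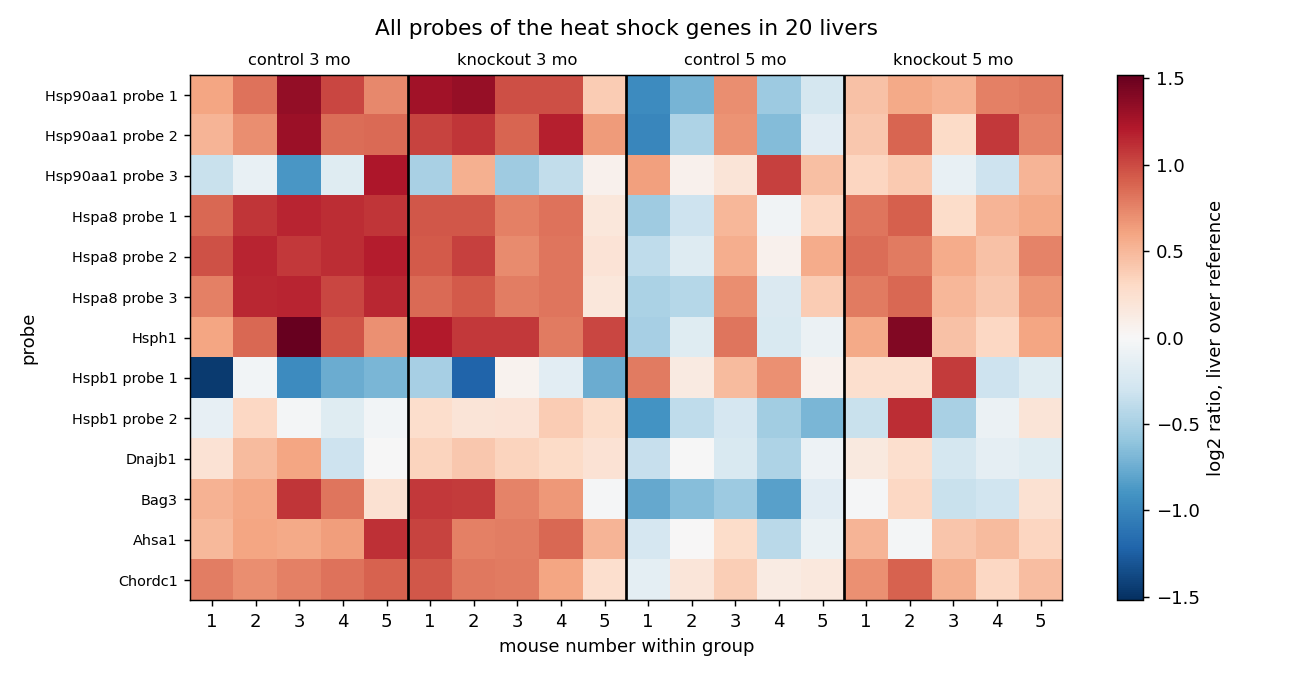
Colours give the log2 ratio of liver over reference for all 13 probes (rows) in 20 livers (columns, by group and mouse number), red above and blue below the reference. The 5-month control columns are mostly blue or pale except mouse 3, and the rows of Hsp90aa1 probe 3 and Hspb1 probe 1 do not follow the others.

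Promoter sequences are shown for a member that holds a pair of inverted GAA units, for one whose probes disagreed and for one that moved with the first without holding such a pair. They are the 250 bases before the RefSeq start in GRCm38.p6, 5′ to 3′ on the gene's strand, and capitals mark each GAANNTTC or TTCNNGAA, 2 inverted GAA units (N is any base; the 2 patterns were searched on both strands, where each reads the same). Hsph1 lies at chr5:149636316-149636565 on the minus strand, Hspb1 at chr5:135887669-135887918 on the plus strand and Bag3 at chr7:128523333-128523582 on the plus strand.
Hsph1: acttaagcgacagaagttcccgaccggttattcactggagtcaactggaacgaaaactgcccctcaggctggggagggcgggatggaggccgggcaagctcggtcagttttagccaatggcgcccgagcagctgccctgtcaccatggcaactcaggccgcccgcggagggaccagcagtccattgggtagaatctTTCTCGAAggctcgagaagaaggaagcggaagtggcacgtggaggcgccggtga
Hspb1: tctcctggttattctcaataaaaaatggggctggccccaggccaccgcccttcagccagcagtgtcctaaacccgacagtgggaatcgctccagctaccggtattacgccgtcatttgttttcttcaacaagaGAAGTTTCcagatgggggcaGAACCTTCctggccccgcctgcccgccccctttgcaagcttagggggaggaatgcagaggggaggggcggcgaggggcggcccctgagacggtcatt
Bag3: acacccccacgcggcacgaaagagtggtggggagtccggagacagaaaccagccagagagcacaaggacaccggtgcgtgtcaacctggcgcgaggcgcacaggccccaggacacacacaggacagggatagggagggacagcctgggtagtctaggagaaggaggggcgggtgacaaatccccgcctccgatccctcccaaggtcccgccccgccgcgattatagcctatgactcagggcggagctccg
Hsph1 has 1 such pair, 54 bases before this start, or 33 before its other listed start. Hspb1 has 2, at 117 and 97 bases, Hspa1b has 1, at 104 bases, and none was found in the windows of Bag3, Ahsa1, Chordc1 and Dnajb1. Windows were listed for 7 of the 10 genes, and 3 of the 7 hold a pair. Of 27018 genes with windows of that length, 14.553% held at least 1 pair, so that a match is common and describes the letters alone. A run of 3 alternating GAA units was also searched for. It was found in no window of the 7 genes and in 0.514% of all genes. Hsph1, with a pair, and Bag3, without one, both fell in controls between the ages.

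Whether loss of Met alters these genes was asked at each age. At 5 months 7 of the 8 genes had higher values in knockouts and none was called, while 0.145% of all probes were (53 of 36607). The log2 difference was 0.98 ± 0.25 (SE) for Hsp90aa1 (95% interval 0.46 to 1.49, adjusted p = 0.144), 0.71 ± 0.23 for Hsph1 (0.22 to 1.20, 0.285) and 0.64 ± 0.19 for Hspa8 (0.24 to 1.04, 0.236). Probe 2 of Hsp90aa1 gave 1.00 ± 0.24 (adjusted p = 0.126), probe 3 -0.32 ± 0.31, and the further probes of Hspa8 0.56 ± 0.18 and 0.66 ± 0.21. Bag3 had 0.57 ± 0.21, Chordc1 0.45 ± 0.14, Ahsa1 0.44 ± 0.15 and Dnajb1 0.19 ± 0.16. For all of these but Dnajb1 and probe 3 of Hsp90aa1, each of the 5 knockouts lay above the control mean, yet no gene had groups that did not overlap (3.92% of all probes had). Before adjustment 6 of the 8 genes had p under 0.05, against 10.5% of all probes. The median difference of the 8 genes was 0.51 and that of all probes 0.01. Hspb1 had -0.21 ± 0.29 from probe 1 and 0.63 ± 0.22 from probe 2.

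The values moved with the choice of probe, control mouse and array. Averaged over its 3 probes, Hsp90aa1 had 0.55 (adjusted p = 0.231). Mouse 3 was the highest of the 5-month controls in 5 of the 8 genes. Without it, Hsp90aa1 was called, at 1.24 (adjusted p = 0.0144) and 1.25 for probe 2 (0.0151), while Hsph1 had 0.93 (0.0677) and Hspa8 0.77 (0.102), and the calls over all probes rose to 105. Over all mice left out in turn, Hsp90aa1 ran from 0.83 to 1.24 (adjusted p up to 0.392). Hsph1 ran from 0.53 to 0.93 (up to 0.634) and Hspa8 from 0.51 to 0.77 (up to 0.519). With quantile normalisation of the arrays Hsp90aa1 was also called (1.43, adjusted p = 0.0387), among 766 probes, 431 higher and 335 lower, where the values as deposited gave 47 and 6. The arrays carry database numbers in 4 runs, and all 5-month controls lie in a run with knockouts 1 and 2. Within that run Hsp90aa1 had 0.87, Hspa8 0.88, Hsph1 1.03, Bag3 0.74, Chordc1 0.67 and Ahsa1 0.34, with no gene called. With the run as a covariate no probe of the table was called at 5 months. The liver-in-Cy5 array of control 4 carried the dye pattern of liver-in-Cy3 arrays: its correlation with the dye effect was -0.59, against 0.36 to 0.75 in the other 18 liver-in-Cy5 arrays. Without it the differences were 0.94 for Hsp90aa1, 0.58 for Hspa8 and 0.68 for Hsph1.

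At 3 months the genotypes differed little. None of the 8 genes was called (0.0355% of all probes, 13 of 36607), none had p under 0.05 before adjustment (7.96% of all probes), none had groups free of overlap (1.31%), and 6 lay above and 2 below zero. The difference was 0.09 ± 0.25 for Hsp90aa1 (95% interval -0.43 to 0.60), 0.11 ± 0.23 for Hsph1, 0.06 ± 0.21 for Bag3, 0.11 ± 0.15 for Ahsa1, 0.13 ± 0.16 for Dnajb1 and -0.12 ± 0.14 for Chordc1. Hspa8 had -0.34 ± 0.19 (-0.74 to 0.06, adjusted p = 0.715), and all 5 knockouts lay below the control mean. Within the 2 runs that hold both genotypes it had -0.10 and -0.52. Hspb1 had 0.26 ± 0.29 from probe 1 and 0.28 ± 0.22 from probe 2.

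The difference between the ages' genotype effects was tested directly. For Hspa8 it was 0.98 ± 0.27 (p = 0.00164 before and 0.450 after adjustment by limma), for Hsp90aa1 0.89 ± 0.35 (0.0195 and 0.569) and for Chordc1 0.57 ± 0.20 (0.00872 and 0.521). No member was called, nor was any probe of the table (0.0%), and 3 of the 8 genes had p under 0.05 before adjustment, against 7.74% of all probes. The effects at 3 and 5 months are therefore not shown to differ.

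**Figure D4:**
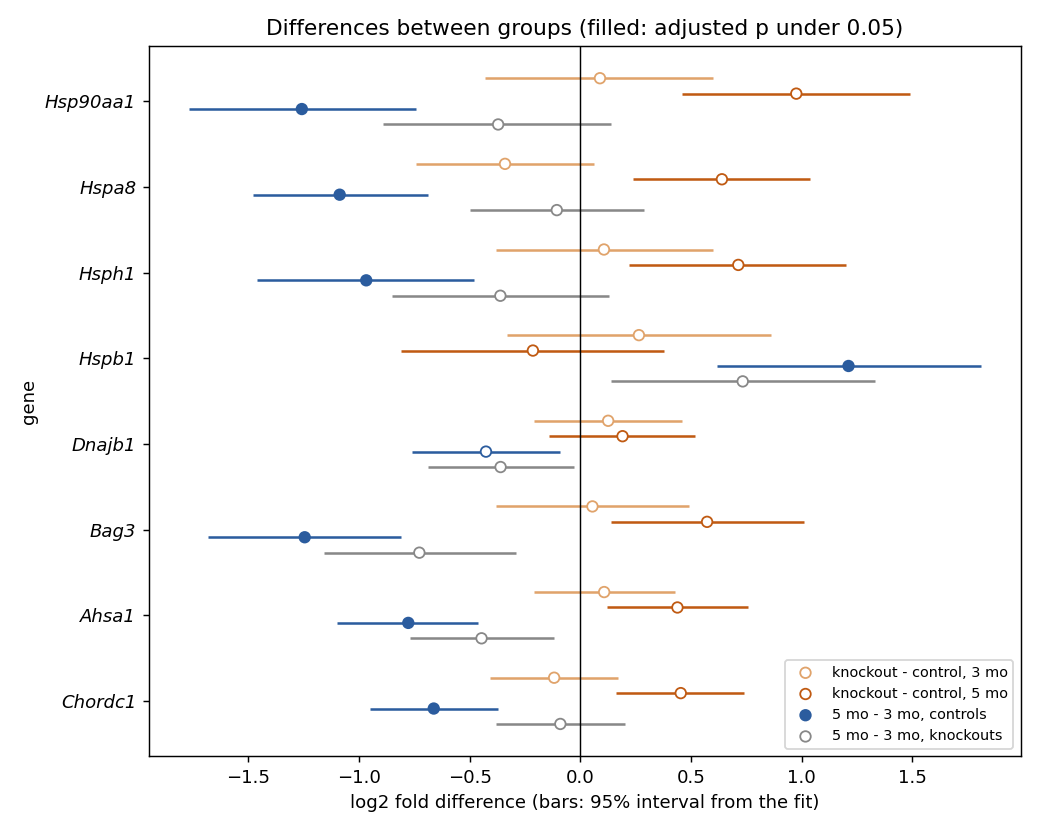
For each gene (rows, probe 1) the x axis gives 4 log2 differences between groups of 5 mice with their 95% intervals from the fit. Filled points are called at adjusted p under 0.05: 7 genes in controls at 5 against 3 months and none in the other comparisons.

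Between 3 and 5 months in controls, 6 of the 8 genes fell and 1 was called higher, Hspb1 probe 1 at 1.21 ± 0.29 (adjusted p = 0.0102), whose call was lost with liver in Cy5 alone (0.68, 0.106). Calls covered 14.7% of all probes, 7.25% lower and 7.41% higher, and 32.4% had p under 0.05 before adjustment, as did all 8 genes. Hsp90aa1 fell by 1.26 ± 0.25 on the log2 scale (2.39-fold, adjusted p = 0.00381), Bag3 by 1.25 ± 0.21 (2.37-fold, 0.00162) and Hspa8 by 1.09 ± 0.19 (2.12-fold, 0.00202). Hsph1 fell by 0.97 ± 0.23 (adjusted p = 0.0118), Ahsa1 by 0.78 ± 0.15 (0.00404) and Chordc1 by 0.66 ± 0.14 (0.00544). Dnajb1 had -0.43 ± 0.16 and an adjusted p of 0.0746, and it was called without 3-month control 4 (-0.55, 0.0217) or with each array centred on its median (-0.57, 0.0347). In 5 of the 8 genes the ages did not overlap (12.5% of all probes). The median of the 8 genes was -0.87 and that of all probes 0.13. Each of these 6 genes kept its call with either dye orientation alone, without each mouse in turn and without the array of control 4. With liver in Cy5 alone far more of all probes were called (count given below), so that a call kept there says little. Of the further Hsp90aa1 probes, probe 2 had -1.17 ± 0.24 and was called. Probe 3 went the other way, at 0.54 ± 0.31 (adjusted p = 0.236), and the mean over probes was not fitted for this comparison. Centring each array on its median moved the split of all calls from 2714 higher and 2655 lower to 1556 and 4747 (3163 and 5103 with quantile normalisation), and made the falls larger (Hsp90aa1 -1.40, Bag3 -1.39, Hspa8 -1.23).

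In knockouts no member was called between the ages (4.73% of all probes were, 0.743% lower and 3.99% higher), and 4 of the 8 genes had p under 0.05 before adjustment (25.7% of all probes). Bag3 came nearest, with -0.73 ± 0.21 (adjusted p = 0.0506), before Ahsa1 with -0.45 ± 0.15 (0.0848). Hsp90aa1 had -0.37 ± 0.25, Hsph1 -0.36 ± 0.23, Dnajb1 -0.36 ± 0.16, Hspa8 -0.11 ± 0.19 and Chordc1 -0.09 ± 0.14. Hspb1 probe 1 lay on the other side, at 0.73 ± 0.29 (adjusted p = 0.117), and with Bag3, Ahsa1 and Dnajb1 made up the 4. The 95% interval of Hsp90aa1 ran from -0.89 to 0.14, and no member's groups were free of overlap (6.88% of all probes). Without 3-month knockout 5, the lowest of its group in 6 of the 8 genes, Bag3 was called (-0.91, adjusted p = 0.0220), and without 5-month knockout 2 as well (-0.81, 0.0465). With each array centred on its median Bag3 (-0.90, 0.0278) and Ahsa1 (-0.62, 0.0285) were called, and the split of all calls went from 1460 higher and 272 lower to 796 and 1292 (659 and 1106 with quantile normalisation). These age comparisons share their 5-month groups with the genotype comparison, so that their values are not independent of it. Age, the time since the dose and the run of arrays cannot be told apart, since no run holds both ages. The arrays also differed in spread by age. The SD of their log2 ratios over all probes ran from 0.669 to 1.278 at 3 months and from 0.434 to 0.903 at 5 months. With quantile normalisation, which gives all arrays the same spread, the 6 falls in controls kept their calls.

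Against the reference, 3-month controls had 6 of the 8 genes called higher (12.3% of all probes) and Hspb1 probe 1 called lower, at -0.78 ± 0.20 (17.6%), where 29.9% of all probes were called. Hspa8 stood highest, at 1.07 ± 0.13 (SE), followed by Hsph1 at 0.93 ± 0.17 and Hsp90aa1 at 0.90 ± 0.17, and these do not differ beyond their spread. In 3-month knockouts 7 genes were called higher (10.6% of all probes, 28.2% called in all), Dnajb1 among them at 0.32 ± 0.11 (adjusted p = 0.0383, lost without mouse 1, 2, 3 or 4). Hsph1 stood highest there, at 1.03 ± 0.17, with Hsp90aa1 at 0.99 ± 0.17. The 5-month controls had 1 gene called, Bag3, lower at -0.60 ± 0.15 (14.5% of all probes were lower, 29.2% called in all), which lost its call with liver in Cy5 alone (-0.38, adjusted p = 0.157), and the second Hspb1 probe, at -0.56 ± 0.16 (-0.47 and not called without mouse 1 or without the Cy5 array of control 4). In 5-month knockouts 5 genes were called higher (17.1% of all probes, 29.5% called in all): Hsph1 at 0.67 ± 0.17, Hspa8 and Hsp90aa1 each at 0.62, Chordc1 at 0.59 ± 0.10 and Ahsa1 at 0.34 ± 0.11. Of these, Ahsa1 lost its call when arrays were centred on their median (0.28, adjusted p = 0.0619) and without knockout 1, 3, 4 or 5 (0.30, 0.33, 0.31 and 0.35). Hspa8 and Chordc1 kept theirs when knockouts 2 and 3, with 1 array each, were left out, and Hsp90aa1, Hsph1 and Ahsa1 did not. With liver in Cy5 alone Hspa8 and Ahsa1 were called, and Chordc1 (0.38, adjusted p = 0.140), Hsp90aa1 (0.56, 0.110) and Hsph1 (0.58, 0.0768) were not. With liver in Cy3 alone Ahsa1 had 0.17 (0.325). Centring moved the split of all calls from 4512 higher and 6436 lower to 6020 and 4699 in 3-month controls, from 3870 and 6442 to 5542 and 3864 in 3-month knockouts, from 5372 and 5304 to 3931 and 6755 in 5-month controls, and from 6249 and 4538 to 4473 and 5835 in 5-month knockouts. The reference is a single pool, so that these tests leave out the spread among normal livers.

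The wider chaperone network was read from 79 genes in 10 lists, 75 of them measured. In controls 19 of the 75 fell and 3 rose between 3 and 5 months (of all probes, 7.25% were called lower and 7.41% higher), beside a median of -0.24 for the 75 and 0.13 for all probes. Among HSP70 partners, Dnaja1, a J-domain protein, fell by 1.07 ± 0.19 (adjusted p = 0.00220), though its further probes had -0.01 and 0.21, and Dnajc7 fell by 0.33 ± 0.11 and St13, the Hip co-chaperone, by 0.49 ± 0.14. Of the 11 HSP90 co-chaperones 2 fell: Ppid, an immunophilin, by 0.91 ± 0.15 (0.00177) and Cacybp by 0.94 ± 0.21. Stip1, the HOP protein that joins HSP70 to HSP90, had -0.43 ± 0.17 and was not called. Of 8 subunits of TRiC, the ring that folds actin and tubulin, Cct5 fell by 0.63 ± 0.15, Cct3 by 0.48 ± 0.14 and Cct8 by 0.46 ± 0.12. Hspa4 fell by 0.46 ± 0.14 and Hspa14 by 0.46 ± 0.15, though the other probe of Hspa14 had 0.40.

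Some chaperones of other compartments fell in controls too, where 7.25% of all probes were called lower. In the mitochondrial list 5 of 6 had values below zero and 4 fell, led by Hspd1, the HSP60 chaperonin, by 1.09 ± 0.22 (adjusted p = 0.00483), with its partner Hspe1 by 0.73 ± 0.20, Hspa9 by 0.49 ± 0.14 and Dnaja3 by 0.48 ± 0.15. All 13 chaperones of the endoplasmic reticulum had values below zero and 3 fell: Dnajb9 by 1.30 ± 0.25 (its other probe had 0.59), Hspa5, which encodes BiP, by 0.99 ± 0.20, and Hsp90b1 by 0.70 ± 0.15. None of the small heat shock proteins was called, and Hspb8 had -0.51 ± 0.18 (called without 3-month control 5, at -0.61). Among the heat shock factors, Hsbp1, which binds HSF1, fell by 0.40 ± 0.12, and Hsf2 had -0.09 ± 0.17. Hspa1a, the heat-inducible HSP70, went the other way and rose by 0.55 ± 0.14 (adjusted p = 0.0168), from -0.38 ± 0.18 to 0.17 ± 0.14. It is a near-identical copy of Hspa1b, and its call was lost with liver in Cy5 alone (0.76), in Cy3 alone (0.33) and with quantile normalisation (0.32). In the list of further HSF1 targets Mt1 and Mt2 rose, by 2.48 ± 0.57 and 3.15 ± 0.66. They encode metallothioneins, which bind zinc and also respond to metals and glucocorticoids. Sqstm1, an autophagy receptor, fell by 0.69 ± 0.16. Calls of the smaller falls were lost when single mice were left out: without 5-month control 4, Cct3, Cct8, Dnaja3, Dnajc7, Hsbp1, Hspa14, Hspa4, Hspa9, Hspe1 and St13 each lost the call with values still from -0.32 to -0.65, and all of these but Cct8 also lost it without at least 1 other control.

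In the genotype comparisons none of the 75 was called at either age. At 5 months 52 lay above and 23 below zero, with a median of 0.11. The farthest were Mt2, at -1.79 ± 0.66, and Mt1, at -1.51 ± 0.57, followed by Hspd1 at 1.07 ± 0.22 (adjusted p = 0.0648), Dnajb9 at 0.77 ± 0.25, Dnaja1 at 0.65 ± 0.19, Hsp90b1 at 0.63 ± 0.15 and Hspa5 at 0.55 ± 0.20. St13 had 0.51 ± 0.14 and Ppid 0.50 ± 0.15. Without control 3, Hspd1 (1.22, adjusted p = 0.0234) and Dnaja1 (0.82, 0.0469) were called. Averaged over all probes of the gene, Dnaja1 had 0.06 (0.946), its further probes being at -0.26 and -0.21, and Hspd1 0.66 (0.0941). Hspa1a had -0.03 ± 0.14, where its cytosolic relative Hspa8 had 0.64 ± 0.19, also not called. The difference between these genes was not tested. Knockouts between the ages had 2 of the 75 called, Dnajb2 lower by 0.38 ± 0.10 and Dnajc7 lower by 0.41 ± 0.11, where 4.73% of all probes were called and 0.743% called lower.

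Markers of liver cell types were read beside these genes, and their part in the results was not tested. Among 9 Kupffer cell and macrophage markers 8 lay higher in knockouts at 5 months, with a median of 0.50, and their mean log2 ratio per mouse ran from -0.60 to -0.04 in 5-month controls and from -0.18 to 0.48 in 5-month knockouts. The 8 hepatocyte markers all lay higher too, with a median of 0.21 and ranges of -0.48 to 0.20 and 0.11 to 0.39, as did 7 of 8 endothelial markers, with a median of 0.37 and ranges of -0.50 to -0.20 and -0.13 to 0.12. Of 6 stellate cell markers 5 lay higher, with a median of 0.05 and ranges of -0.56 to -0.45 and -0.47 to -0.24, and of 4 cholangiocyte markers 3, with a median of 0.20 and ranges of -0.37 to -0.05 and -0.13 to 0.06. All 3 neutrophil markers lay lower, with a median of -0.12. No marker of these lists was called in the genotype comparisons. In controls between the ages 3 of 8 hepatocyte, 3 of 9 Kupffer cell and 3 of 8 endothelial markers fell, where 7.25% of all probes were called lower. Ratios to a liver reference give no absolute level, and Alb, a hepatocyte marker, ran from 0.13 to 0.23 in 3-month controls and from -0.56 to 0.04 in 5-month controls.

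Genes that follow the clock differed by age, and the collection time is not in the labels. Dbp, a clock output gene, rose by 2.57 ± 0.41 in controls and 3.00 ± 0.41 in knockouts, and 7 of 11 clock genes were called in controls (14.7% of all probes) and 4 in knockouts (4.73%). Age and collection time cannot be told apart here. At 5 months Dbp had -1.16 ± 0.41 in knockouts against controls (adjusted p = 0.327) and at 3 months -1.60 ± 0.41 (0.207). Of 10 immediate early genes none was called between genotypes, the nearest being Dusp1, a stress-induced phosphatase, at 1.42 ± 0.28 at 5 months (0.0514). The cold-inducible genes Cirbp and Rbm3 had -0.11 ± 0.15 and 0.24 ± 0.16 there. Met itself, by 1 probe whose place relative to the floxed exon is not given, had 0.42 ± 0.21 at 3 months and -0.05 ± 0.21 at 5 months, and so does not check the deletion.

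Within groups some livers held the highest or the lowest value in several of the 8 genes. Of the 3-month controls mouse 3 was the highest in 5 of 8 genes and mouse 1 the lowest in 5. Of the 5-month knockouts mouse 2 was the highest in 5 and the lowest in 1. The tally includes Hspb1 probe 1, whose arrays disagree, and was not made for other genes. Among 17493 other named genes, those whose deviations from the group means followed the mean of the 8 genes most closely over 20 mice were Slco1a1 (Pearson r = 0.83, Spearman rho = 0.83), Ugt2b1 (0.79 and 0.78), Ces2a (0.79 and 0.76), Xpo7 (0.78 and 0.81) and Keg1 (0.78 and 0.66). Without the 2 mice farthest from the median r was 0.72, 0.64, 0.70, 0.72 and 0.59. Slco1a1 encodes an organic anion transporter, Ugt2b1 a glucuronosyltransferase, Ces2a a carboxylesterase and Xpo7 a nuclear export receptor. They are the top of a search and all values share the same arrays, so that this is a description with no test. Ugt2b1 and Ces2a also fell in controls between the ages, by 0.96 ± 0.27 and 0.75 ± 0.16, while Slco1a1 had -0.37 ± 0.23, Keg1 -0.18 ± 0.20 and Xpo7 0.03 ± 0.16, none of them called.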

How the data were processed

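Liver RNA of 20 mice was hybridised on 38 two-colour arrays against 1 pooled reference. Deposited values are log2 dye ratios per probe, which per the labels' protocols the authors normalised to the 50th percentile of each array. The numerator dye is not stated. Here the sign of arrays with liver in Cy3 was turned, each probe's dye effect over 18 mice was subtracted, and arrays were averaged per mouse. That effect pools both ages, though array medians of liver over reference differed by age. With liver in Cy5 they ran from -0.649 to -0.337 at 3 months and from -0.101 to 0.089 at 5 months. With liver in Cy3 they ran from 0.167 to 0.385 and from 0.035 to 0.272. This bears on the 2 mice with 1 array each. Group means of all 20 mice were fitted with limma 3.58.1 in R 4.3.3, with Benjamini-Hochberg adjustment over 36607 probes. No intensities or counts were used, so that depth does not apply and the number of mice limits the precision. Symbols come from the platform annotation: 26926 probes had 1 symbol, 203 several and 9478 none, and only the first kind was named. All 8 genes found were named, with network genes by call or largest difference in each list. Members, lists and tests were chosen with earlier results of these data known. In simulated data for knockouts against controls at 5 months, 65% of 100 probes with a true log2 change of 1 and 91% of 100 with a change of 2 were recovered, with 15 false calls. The simulated noise was independent between probes, with the same spread in all groups and no effect of array run. Real arrays may behave otherwise. Alternatives covered normalisation, dye orientation, array runs, probe choice, single mice, a replicate block and a 2-sample t-test without the methods' random variance model. Those for array runs, probe choice, a dye effect per age and the t-test were run for the genotype comparisons alone.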

Additional observations from a re-analysis of the deposited data

Results flagged for a closer look

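In 5 of 52 groups of mice (13 probes in 4 groups) 1 mouse lay far from the other 4 of its group, where chance flags about 1 group in 20. Hspa8 accounts for 3 of them: by probe 1 the lowest 3-month control, mouse 1, had 0.87, against 1.09 to 1.16 in the others. The lowest 3-month knockout, mouse 5, had 0.17 by probe 1, against 0.76 to 0.95, and 0.17 by probe 3, against 0.78 to 0.93. Hsph1 in 5-month knockout 2, a liver with 1 array in Cy3, had 1.41, against 0.32 to 0.60 in the others. Ahsa1 in 3-month control 5 had 1.11, against 0.49 to 0.63.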

How the results depend on the processing

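The falls of Hsp90aa1, Hspa8, Hsph1, Bag3, Ahsa1 and Chordc1 in controls, by probe 1, kept their direction and call in all 18 alternatives run for them. These did not include the mean over a gene's probes, the run of arrays or a dye effect per age. They did include liver in Cy5 alone, where far more of all probes were called. Age cannot be told apart from array run or collection time, 2 of the 5-month knockouts have 1 array each. No cause of the changes below was tested.

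At 3 months the 13 probes called for genotype became 1 with quantile normalisation, gene means or without the Cy5 array of 5-month control 4. They also became 1 with that array given the other dye effect (chosen after seeing the data). The count was 2 with either orientation alone, 23 with mice of both orientations, 5 with no dye effect and 26 with a dye effect per age. It was 27 with the run as covariate, and 0 within either run or with mice of that age alone. A plain 2-sample t-test, without the methods' random variance model, gave 0 after Benjamini-Hochberg adjustment (63 at the methods' unadjusted threshold). At 5 months 53 became 29 when centred, 766 with quantile normalisation, 2 with liver in Cy5, 0 with liver in Cy3, 21 with both orientations and 22 with gene means. The count was 4 with that age alone, 0 with the run as covariate, 24 with it as a random block and 2 within a run. The same plain t-test gave 0 (242 unadjusted). Quantile normalisation called 1 of the 8 genes there.

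In controls between the ages 5369 probes became 8266 with quantile normalisation, 17546 with liver in Cy5 and 3277 without the array of control 4. In knockouts 1732 became 10207 with liver in Cy5, 5 with liver in Cy3 and 13 with both orientations. Centring (2088 of all probes called), quantile normalisation (1765) and liver in Cy5 (10207) each called 2 of the 8 genes. The shares over all probes behind these equal counts were thus not alike. Against the reference, quantile normalisation, liver in Cy5 and liver in Cy3 gave 6559, 24159 and 21889 probes in 3-month controls and 6045, 24237 and 19137 in 3-month knockouts. The 5-month controls had 16881 with quantile normalisation, 2334 with liver in Cy5, 6338 without the array of control 4 and 6846 with its other dye effect, with 2, 0 and 3 of the 8 genes called by quantile normalisation, liver in Cy5 and liver in Cy3. The 5-month knockouts had 2487 with liver in Cy5 and 3152 with both orientations, calling 2 genes each, Hspa8 and Ahsa1 in the former and Hspa8 and Chordc1 in the latter.

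Leaving out 1 mouse gave 0 to 16 probes for genotype at 3 months and 10 to 105 at 5 months (10 without control 4, 105 without control 3), with 0 to 1 of the 8 genes at 5 months, and 0 to 1 probe for the difference between ages. It gave 2389 to 6535 in controls (2389 without 5-month control 4) with 7 to 8 genes, and 388 to 3022 in knockouts (388 without 5-month knockout 3, 3022 without 3-month knockout 3) with 0 to 1 gene. Against the reference it gave 7851 to 10545 in 3-month controls (7 to 8 genes), 6923 to 11006 in 3-month knockouts (6 to 7), 5347 to 8706 in 5-month controls (1 to 2) and 6435 to 9105 in 5-month knockouts (4 to 5).

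Replicate numbers did not pair the mice: same-numbered deviations correlated from -0.179 to 0.169. With the replicate number as a block, 3 and 16 probes were called for genotype at 3 and 5 months, 5217 in controls and 1864 in knockouts between the ages, and 0, 0, 7 and 0 of the 8 genes.

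Uncalled signs that reversed were, for genotype at 3 months, Hsp90aa1 (-0.09), Bag3 (-0.06) and Ahsa1 (-0.15) within 1 run, Hspb1 (-0.04), Dnajb1 (-0.06) and Chordc1 (0.13) within the other, and Bag3 with liver in Cy3 (-0.06). At 5 months they were Hsp90aa1 probe 3 with liver in Cy3 (0.09), Hspb1 probe 1 with liver in Cy5 (0.29) or the gene mean (0.21), and Hsf4 with the run as covariate or within a run (0.06 each). For the difference between ages they were Hspb1 probe 1 (0.15) and Dnajb1 (-0.05) with liver in Cy5. With liver in Cy3, Hspa12a had -0.52 in controls and Hspa8 0.06 in knockouts between the ages. Without 1 mouse, Dnajb1 ran from 0.00 to 0.23 and Bag3 from -0.05 to 0.24 for genotype at 3 months, and Dnajb1 from -0.04 to 0.19 for the difference between ages.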
